A study of Bos indicus x Bos taurus with 45 samples.

Results

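The microRNAs (miRNAs) of tongue were compared with those of skeletal muscle in 4 control bovine fetuses. The comparison used 8 of the 45 libraries of the series, the tongue library and the skeletal muscle library of controls 1 to 4, paired by the fetus number in the labels, and the 414 miRNAs that the count tables of both tissues list. The fetuses were Bos indicus x Bos taurus, taken at about day 105 of gestation, labelled healthy and conceived by artificial insemination. The 4 tongue libraries are labelled female, while the labels of the muscle libraries give no sex and do not say which muscle was taken. The same contrast was repeated in the 8 libraries of fetuses 1 to 4 with large offspring syndrome (LOS), an overgrowth condition of ruminants, which were conceived by assisted reproduction. Tongue libraries of controls 5 to 9 (5 female, 6 to 9 male) and kidney and liver libraries of controls 1 to 4 gave levels in other fetuses and other tissues. The tongue libraries of these LOS fetuses are also labelled female. The number in a label was taken as 1 fetus in every tissue.

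miRNAs are short RNAs that guide repression of messenger RNAs. Each is cut from a hairpin precursor that has a 5p and a 3p arm, and usually 1 arm is retained more than the other. Striated muscle is known for a small set of abundant miRNAs, some of them encoded within myosin heavy chain genes, and epithelia, mesenchyme and vessels each have characteristic miRNAs of their own. Tongue and skeletal muscle are both rich in striated fibres. Tongue also carries a stratified squamous epithelium, glands and taste papillae, and lies at the head end of the body axis along which the HOX genes are expressed.

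Tissue and processing cannot be told apart in these data. Each tissue is a table of its own, and the submitters' processing notes name cutadapt 1.18 for tongue and not for muscle. Listed reads ranged from 9686419 to 13822348 in the 4 tongue libraries and from 5321105 to 5878392 in the 4 muscle libraries, and no listed count was 0. Levels below are counts scaled to 1000000 listed reads per library (CPM) and divided by the TMM scaling factor of the library (1.05 to 1.21 in tongue, 0.858 to 0.909 in muscle), unless called unscaled. The factors set the median log2 difference of the 414 miRNAs to about 0. Without them it was 0.35, and the number called higher or lower in tongue changed as given below. A log2 difference is tongue minus muscle, with its standard error (SE) after the ± sign, and a mean CPM has the standard deviation (SD, n = 4) after it. In bulk tissue, fewer cells of a type and less of a miRNA per cell cannot be told apart. Where the tissues were paired by fetus, each p-value rests on how the tongue minus muscle difference varied among the fetuses. The labels' numbers were taken as separate animals.

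The miRNA profiles of the tissues differed widely. Of the 414 miRNAs, 231 (55.8%) passed an adjusted p under 0.05 in edgeR's quasi-likelihood test with Benjamini-Hochberg adjustment and the fetus as a block. In tongue 116 (28.0%) were higher and 115 (27.8%) lower. Without the scaling factors the split was 212 higher and 77 lower. A difference of 2-fold or more was present in 78 of the calls (18.8% of the 414), 27 higher and 51 lower in tongue (65 higher and 33 lower without the factors), and one of 4-fold or more in 6 higher and 17 lower. A test against the 2-fold limit itself (edgeR glmTreat) kept 40, with 10 higher and 30 lower. The 4 tongue and 4 muscle libraries did not overlap in 215 miRNAs (51.9%), 204 of them among the calls, and 226 of the calls had the same direction in 4 of 4 fetuses. The median SD between fetuses was 0.19 in tongue and 0.17 in muscle on the log2 scale.

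**Figure D1:**
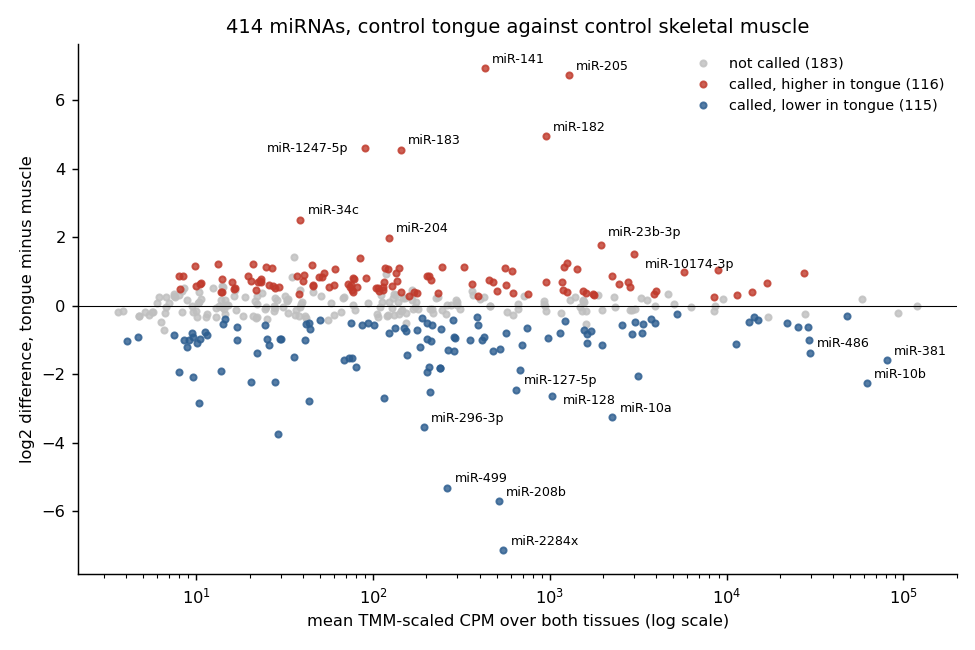
Log2 difference (tongue minus muscle, vertical axis) of each of the 414 miRNAs against its mean scaled CPM over both tissues (horizontal axis, log scale) in control fetuses 1 to 4. Red points were called higher in tongue (116), blue points lower (115) and grey points were not called (183), with miR-141 and miR-205 at the top and miR-2284x, miR-208b and miR-499 at the bottom.

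The most abundant miRNAs were largely shared. In unscaled listed reads, miR-127 of the imprinted DLK1-DIO3 domain made up 13.5% of tongue and 10.7% of muscle, and miR-411a of the same domain 9.77% of tongue and 8.90% of muscle. miR-26a, a miRNA present in most differentiated tissues, followed with 7.03% in tongue and 4.84% in muscle. The profiles differed in miR-381 (4.55% of tongue, 10.7% of muscle), miR-10b (2.47% and 9.00%), and in miR-486, miR-378 and miR-30a-5p, which stood among the 10 most abundant in muscle and not in tongue. In their place tongue had miR-27b, miR-143 and miR-199a-3p. The 10 most abundant miRNAs held 54.0% ± 2.14 of tongue reads and 61.8% ± 0.98 of muscle reads.

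Both tissues carried the miRNAs of striated fibres, and the sharpest difference within that group concerned the myosin-encoded members. miR-208b, which lies within the gene of the slow and cardiac beta myosin heavy chain, stood at 36.5, 18.4, 15.2 and 12.3 CPM in tongue of fetuses 1 to 4. In muscle it stood at 1224, 1017, 749.7 and 1052 CPM. Every muscle library lay far above every tongue library, and the fitted level was 52.2-fold higher in muscle (log2 difference -5.71 ± 0.24, adjusted p in edgeR 2.75e-06). miR-499, which lies within a related slow myosin gene, stood at 15.7, 15.2, 11.7 and 9.40 CPM in tongue and 556, 485, 472 and 542 CPM in muscle (-5.32 ± 0.18, adjusted p in edgeR 1.98e-06). Its other arm, miR-499-3p, was listed in muscle alone at 24.8 ± 4.75 unscaled CPM. Tongue controls 5 to 9 had 14.1 to 39.5 CPM of miR-208b and 10.1 to 22.3 CPM of miR-499, so the low level was found in 9 of 9 tongue controls.

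The miRNAs of striated muscle at large differed far less. miR-133a, which acts in fibre growth and differentiation, stood at 11355, 14909, 14226 and 11569 CPM in tongue and 18095, 16478, 17034 and 17115 CPM in muscle, without overlap (-0.41 ± 0.11, adjusted p in edgeR 0.0167). miR-206, a skeletal muscle miRNA induced in differentiating myoblasts, stood at 475, 688, 558 and 578 CPM in tongue and 783, 859, 1135 and 846 CPM in muscle, also without overlap (-0.65 ± 0.13, adjusted p in edgeR 0.00384). miR-1, which promotes muscle differentiation, overlapped between the tissues at 287, 347, 340.3 and 256 CPM and 325, 289, 294 and 243 CPM (0.09 ± 0.11, adjusted p in edgeR 0.486). miR-133b differed by -0.47 ± 0.12 and miR-133a-5p by 0.24 ± 0.13. These small differences depend on the scaling: without the factors miR-133a, miR-133b and miR-206 lost their calls (log2 differences -0.06, -0.12 and -0.30), and miR-1 and miR-133a-5p were called higher in tongue (0.45 and 0.60). Without fetus 1, miR-133a had an adjusted p of 0.0522 in edgeR.

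miR-486, which lies within the ankyrin 1 gene and is abundant in both muscle and red cells, stood at 16206, 18817, 17987 and 13043 CPM in tongue and 45579, 40204, 48220.2 and 37315 CPM in muscle. Every muscle library was above every tongue library (-1.38 ± 0.11, adjusted p in edgeR 6.03e-05). miR-451 and miR-144 of red cell precursors were not called: miR-451 stood at 278, 151, 112 and 235 CPM in tongue and 79.6, 162, 162 and 141 CPM in muscle (0.46 ± 0.35, adjusted p in edgeR 0.289), and miR-144 at 17.1 ± 7.56 and 10.9 ± 1.17 CPM (0.56 ± 0.26), although miR-144 was called higher in tongue without the factors (0.91). miR-378, which lies within a gene of mitochondrial gene regulation, stood at 19526 ± 2969 CPM in tongue and 39066 ± 2303 CPM in muscle (-1.01 ± 0.11, adjusted p in edgeR 0.000216). In the skeletal muscle list 0 of 10 members were called higher and 8 lower in tongue, beside 28.0% higher and 27.8% lower of all 414, with a median log2 difference of -0.59. Without the factors the list had 2 higher and 4 lower, beside 212 higher and 77 lower of all 414. Their summed level was 28329.8 to 37679 CPM in tongue and 60927 to 71132 CPM in muscle, most of it miR-486 and miR-133a.

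**Figure D2:**
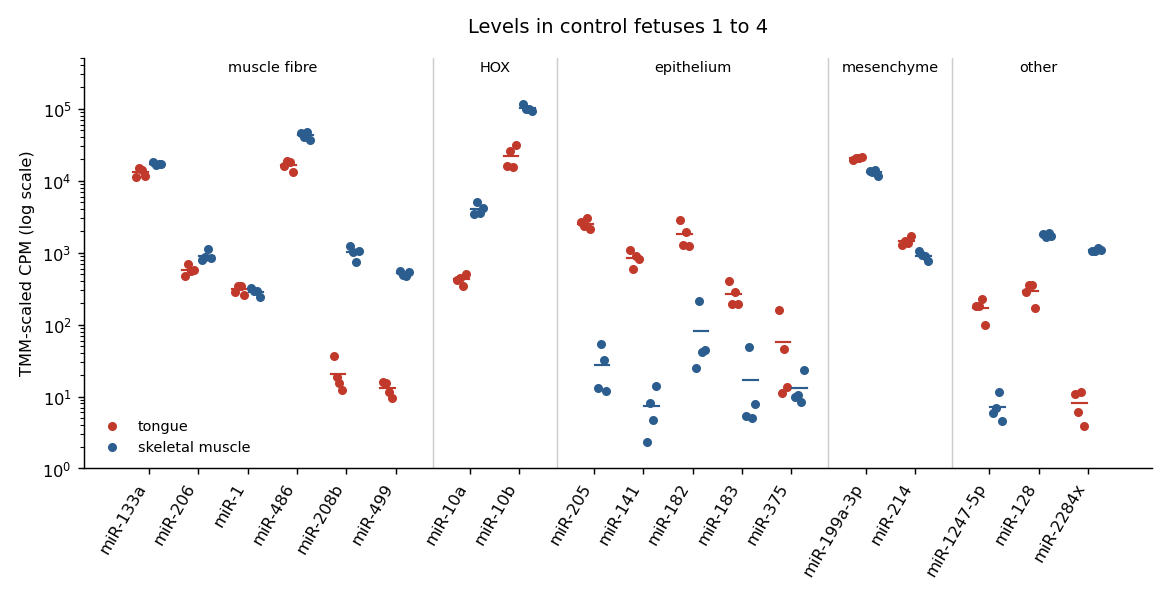
Scaled CPM (log scale) of 18 miRNAs in tongue (red) and skeletal muscle (blue) of control fetuses 1 to 4, each point 1 library in fetus order and each short line the mean of the 4. The tissues overlap for miR-1 and miR-375 and are apart for the others, most of all for miR-208b, miR-499, miR-205, miR-141 and miR-2284x.

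The miRNAs encoded in the HOX clusters were lower in tongue or listed in muscle alone. miR-10a, which lies among the HOXB genes, stood at 412, 444, 346 and 503 CPM in tongue and 3474, 5127, 3602 and 4107 CPM in muscle. The groups were well apart (-3.25 ± 0.12, adjusted p in edgeR 1.98e-06). miR-10b, which lies among the HOXD genes, stood at 16104, 25509.9, 15589 and 31403 CPM in tongue and 114934, 100604, 98761 and 92994 CPM in muscle (-2.26 ± 0.22, adjusted p in edgeR 0.000166). Tongue controls 5 to 9 had 19937 to 31679.5 CPM of miR-10b. The miR-196 genes lie further toward the 5' end of the clusters: miR-196a stood at 457 ± 23.5 and miR-196b at 333 ± 53.5 unscaled CPM in muscle, and neither was listed in tongue. miR-615-3p (36.1 ± 5.91 unscaled CPM) and miR-10b-3p (12.8 ± 0.613 unscaled CPM) were also listed in muscle and not in tongue. The rule by which the authors listed a miRNA is not known here, so absence from the tongue table does not show a level of 0. In kidney, unscaled means reached 118506 CPM for miR-10a, 284405 for miR-10b, 653 for miR-196a and 876 for miR-196b. In liver, miR-10a stood at 3180.1 and miR-10b at 773 unscaled CPM, so tongue was the lowest of the 4 tissues in miR-10a and liver in miR-10b.

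Epithelial miRNAs gave the largest differences toward tongue. miR-205, which is characteristic of the basal layer of squamous epithelium, stood at 2636, 2315, 3039 and 2148 CPM in tongue. In muscle it stood at 13, 53.4, 32.2 and 11.9 CPM. No muscle library came near a tongue library, and the fitted level was 106-fold higher in tongue (6.73 ± 0.41, adjusted p in edgeR 2.89e-05). miR-203, the other marker of stratified epithelium on the list, was not listed in either table. miR-141 of the miR-200 family, which keeps epithelial cells from a mesenchymal state by repressing ZEB factors, stood at 1083, 598, 911 and 803 CPM in tongue and 2.33, 8.19, 4.66 and 14 CPM in muscle (6.93 ± 0.48, adjusted p in edgeR 4.37e-05). The fitted fold of such a miRNA rests on low muscle levels, and the counting error is larger there than in tongue.

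The remaining members of the miR-200 family were listed in tongue and not in muscle. Their unscaled levels in tongue of fetuses 1 to 4 were 617, 314, 566 and 436 CPM for miR-200a. miR-429 had 466, 282, 433 and 292 CPM. miR-200b (190.1 ± 61.5 unscaled CPM) and miR-200c (166 ± 51.7 unscaled CPM) were lower. Fetus 1 was highest and fetus 2 lowest in miR-200a, miR-200b, miR-200c and miR-429, and the same order held at both ends for miR-141. In kidney and liver, which have epithelia of other kinds, miR-200a stood at 558 and 246 unscaled CPM and miR-200c at 66.9 and 20.1. miR-205 was not listed in liver and stood at 193 unscaled CPM in kidney against 2885 in tongue. miR-31, which is known from keratinocytes and also from other cell types, was the most abundant miRNA listed in tongue and not in muscle (582, 459, 395 and 666 unscaled CPM), but liver had as much (547 unscaled CPM).

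The miR-183, miR-96 and miR-182 cluster, known from sensory epithelia, was higher in tongue as well. miR-182 stood at 2814, 1263, 1938 and 1225 CPM in tongue and 25, 210.1, 41.7 and 44 CPM in muscle (4.94 ± 0.68, adjusted p in edgeR 0.000755). miR-183 stood at 406, 195, 283 and 193 CPM in tongue and 5.44, 48.7, 5.09 and 7.82 CPM in muscle (4.55 ± 0.71, adjusted p in edgeR 0.00128). The muscle library of fetus 2 was the highest of the 4 in both, and it was also the highest muscle library in miR-205 (53.4 CPM) and miR-9 (158 CPM), though not in miR-141 (8.19 CPM). Without fetus 2 the log2 difference was 5.69 for miR-182, 5.53 for miR-183 and 7.20 for miR-205. Without fetus 1, whose tongue library was the highest in miR-182 and miR-183, it was 4.31, 3.95 and 6.43. miR-96 was listed in tongue alone (48.6, 18.3, 29 and 18 unscaled CPM) and in neither kidney nor liver. Fetus 1 was highest in tongue for the 3 members.

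miR-375, a miRNA of endocrine and secretory epithelium, varied widely between fetuses and was not called. It stood at 161, 11.2, 45.2 and 13.7 CPM in tongue and 9.90, 10.5, 8.48 and 23.5 CPM in muscle (1.42 ± 0.79, adjusted p in edgeR 0.153). Tongue of fetus 1 was far above the rest, and in controls 5 to 9 the range was 8.32 to 72.4 CPM. The call depended on the fit: it was made without the fetus as a block (2.15, adjusted p in edgeR 0.0476) and without fetus 4 (2.26). The log2 difference was 0.53 without fetus 1 and 0.96 without fetus 3, neither of them called. Of the miRNAs of ciliated epithelium, miR-34c stood at 97.1, 50.5, 60.9 and 56.6 CPM in tongue and 9.32, 14.5, 10.8 and 10.7 CPM in muscle (2.51 ± 0.25, adjusted p in edgeR 0.000179), without overlap. miR-449a, the other main miRNA of multiciliated cells, went the opposite way (11.2, 6.52, 2.67 and 2.74 CPM in tongue, 15.3, 13, 8.69 and 10.9 CPM in muscle, -1.20 ± 0.26), and its groups overlapped. The call for miR-449a was lost without the block (-1.04, adjusted p in edgeR 0.0674) and with all 9 tongue controls (-0.56, adjusted p in edgeR 0.281).

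miR-1247-5p and miR-204 of no list stood among the largest differences toward tongue. miR-1247-5p stood at 182, 178, 229 and 99.3 CPM in tongue and 5.83, 6.93, 11.7 and 4.53 CPM in muscle (4.59 ± 0.16, adjusted p in edgeR 1.98e-06). Its level in kidney (211 unscaled CPM) was close to that in tongue (197), and liver (5.52) was close to muscle (6.35). miR-204, known from pigment epithelium of the eye, stood at 251, 158, 128 and 252 CPM in tongue and 39.6, 43.5, 57.6 and 54.1 CPM in muscle (1.98 ± 0.24, adjusted p in edgeR 0.00038). Kidney (929.7) and liver (562 unscaled CPM) had more of it than tongue (223).

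The miRNAs of mesenchyme were moderately higher in tongue. miR-199a-3p, made by fibroblasts and other mesenchymal cells, stood at 19641, 20811, 20635 and 21385 CPM in tongue and 13519, 13000.4, 14169 and 11556 CPM in muscle (0.66 ± 0.10, adjusted p in edgeR 0.000927). miR-214, from the same transcript, stood at 1281, 1473, 1355 and 1688 CPM in tongue and 1043, 917, 892 and 773 CPM in muscle (0.68 ± 0.14, adjusted p in edgeR 0.00461). The groups did not overlap in either. Of the 6 members tested 6 were called higher in tongue and 0 lower, with a median of 0.67. Of all 414 miRNAs, 28.0% were called higher. The summed scaled level was 29468 to 30299.6 CPM in tongue and 17686 to 20434 CPM in muscle. Without the scaling factors the counts of the list were the same, beside 212 higher of all 414. The arms miR-214 and miR-214-5p are 2 of the members, and so are miR-199a-3p and miR-199a-5p. The call for miR-199a-5p was lost without fetus 2 or fetus 3 (0.29 and 0.31).

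Smooth muscle, vessel, blood and nerve miRNAs showed no common direction. miR-143 of smooth muscle stood at 25432 ± 1359 CPM in tongue and 30426 ± 2850.5 CPM in muscle and was not called (-0.26 ± 0.11, adjusted p in edgeR 0.0741), and without the factors its sign turned (0.10). miR-145, from the same precursor transcript, was lower in tongue (169, 134, 158 and 104 CPM against 305, 285, 263 and 275 CPM, -1.02 ± 0.13), while its other arm miR-145-3p was higher (0.39 ± 0.12), a call that was lost without any 1 of the 4 fetuses (0.34 to 0.44). miR-126-5p of endothelium stood at 7994 ± 949 and 8919 ± 454 CPM (-0.16 ± 0.10, adjusted p in edgeR 0.202). miR-126-3p was called higher (0.31 ± 0.11), but its groups overlapped and its call was lost in the same way (0.24 to 0.37) and without the block. Among white blood cell miRNAs, miR-150 of lymphocytes (37.2, 34.4, 40.7 and 32.1 CPM in tongue, 17.9, 15.8, 26.7 and 10.5 CPM in muscle) and miR-146a (25.2 ± 2.93 and 14 ± 2.64 CPM) were higher in tongue. miR-142-5p (0.31 ± 0.23), miR-142-3p (0.39 ± 0.19) and miR-155 (-0.29 ± 0.14) were not called. Of the 5 members tested 2 were called higher and 0 lower, beside 28.0% and 27.8% of all 414. Without the factors the list had 3 higher and 0 lower, beside 212 and 77 of all 414. The summed white blood cell list was 277 to 376 CPM in tongue and 252 to 336 CPM in muscle, and overlapped.

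Of the miRNAs often used as neuronal markers, miR-124a was listed in tongue alone (7.56 ± 4.75 unscaled CPM), and miR-9 stood at 67.1, 44.1, 39.6 and 42.5 CPM in tongue and 41.6, 158, 33.1 and 51.2 CPM in muscle (-0.28 ± 0.39, adjusted p in edgeR 0.547). Leaving out fetus 2, whose muscle library was highest, turned the sign of miR-9 (0.23). miR-128, which is abundant in brain and also present in muscle, was lower in tongue: 286, 357, 351 and 169 CPM against 1804, 1657, 1894 and 1686 CPM (-2.65 ± 0.19, adjusted p in edgeR 4.37e-05). Muscle (1555 unscaled CPM) had more miR-128 than kidney (119), liver (598) and tongue (332). miR-218, which is known from motor neurons and lies within SLIT genes, was higher in tongue (194, 158, 116 and 159 CPM against 40.6, 88.7, 85 and 86.6 CPM, 1.09 ± 0.28, adjusted p in edgeR 0.0124). Of the 7 neuronal list members tested, 1 was called higher and 1 lower, beside 28.0% and 27.8% of all 414. The log2 difference was above 0 in 4 and below 0 in 3. Without the factors the list had 4 higher and 1 lower, beside 212 and 77 of all 414. miR-192, miR-194 and miR-215, of kidney and gut epithelium, were each called higher in tongue (0.36, 0.55 and 0.84) with overlapping groups. Of all 414 miRNAs, 28.0% were called higher. Beside 212 higher of all 414, the 3 were also called higher without the factors. Their range in tongue controls 5 to 9 was wide (1621 to 6407 CPM for miR-192 and 26 to 1046 CPM for miR-215), and with all 9 tongue controls the log2 differences were larger (0.68 for miR-192 and 2.23 for miR-215) but not called (adjusted p in edgeR 0.0927 and 0.083). The calls were also lost without fetus 3 (0.31, 0.42 and 0.44), that of miR-194 without fetus 1 (0.47), and that of miR-215 without fetus 2 (0.92) or without the block (0.89). miR-122 of hepatocytes was listed in muscle alone (18.4 ± 10.2 unscaled CPM, against 18567 in liver).

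In some miRNA families most of the tested members differed in the same direction. The miR-23, miR-27 and miR-24 clusters, which act in vessel and muscle development, were higher in tongue in 7 of 7 tested members, with a median of 1.08, beside 28.0% of all 414. The count was the same without the factors, beside 212 of all 414. miR-23b-3p stood at 2447, 3144, 2812 and 3578 CPM in tongue and 924, 1019.7, 718 and 852 CPM in muscle (1.77 ± 0.13, adjusted p in edgeR 5.38e-05). miR-27b, the most abundant member, stood at 32716, 39727, 35693 and 36389 CPM in tongue and 18716, 20097, 17499 and 18046 CPM in muscle (0.96 ± 0.09). Both were apart in every fetus. miR-27a-3p (1.23 ± 0.10), miR-24-3p (1.08 ± 0.10) and miR-23a (1.00 ± 0.11) followed. miR-10174-3p, on no list, had levels that went with miR-23b-3p: 3629, 4648, 4271 and 5226 CPM in tongue and 1574, 1765, 1365 and 1502 CPM in muscle (1.51 ± 0.12). Whether reads are shared between these entries was not tested, because sequences and positions were not used here.

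The miR-15 family, whose members restrain the cell cycle, was called higher in tongue in 6 of 7 members and lower in 0 (median 0.88), beside 28.0% and 27.8% of all 414. The counts were the same without the factors, beside 212 higher and 77 lower of all 414. miR-16b stood at 1838, 1493, 1628 and 1677 CPM in tongue and 699, 859.8, 788 and 689 CPM in muscle (1.13 ± 0.12, adjusted p in edgeR 0.000231), and miR-15b at 131, 102, 116 and 138 CPM and 46.6, 52.5, 44.7 and 42.8 CPM (1.37 ± 0.15). The groups were apart in both. Of the miR-99, miR-100 and miR-125 list, 5 of 10 were higher and 1 lower, beside 28.0% and 27.8% of all 414, and the counts were the same without the factors (212 and 77 of all 414). With all 9 tongue controls miR-99a-5p, one of the higher members (0.63 ± 0.11), lost its call (0.32, adjusted p in edgeR 0.174). miR-100 (12659.5, 11735, 10753 and 12866 CPM in tongue, 6256, 5321, 5516 and 6394 CPM in muscle, 1.03 ± 0.08) and miR-125b (7598 ± 626 and 3877 ± 363 CPM, 0.97 ± 0.10) were higher and miR-125b-2-3p lower (-1.27 ± 0.12). In tongue controls 5 to 9, which were scaled separately, miR-100 stood at 6157 to 10650.2 CPM and reached into the muscle range.

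The let-7 family, known for its increase as cells differentiate, was called higher in 8 of 15 members and lower in 2 (median 0.32), beside 28.0% and 27.8% of all 414. Without the factors the list had 9 higher and 0 lower, beside 212 and 77 of all 414. let-7f stood at 15250.0, 15334, 15387 and 17444 CPM in tongue and 10954, 12104, 12818 and 12206 CPM in muscle (0.40 ± 0.09), let-7d differed by 0.69 ± 0.10 and let-7g by 0.53 ± 0.08. let-7i was lower in tongue (12112, 12161, 12153 and 14534 CPM against 15419, 16240.1, 16308 and 16069 CPM, -0.33 ± 0.09), and its sign turned without the factors (0.02). Its call was lost without fetus 2 (-0.31), and that of let-7a-5p (0.32 ± 0.08) without fetus 3 (0.31). In let-7a-5p, let-7f, let-7g and let-7i, tongue of fetus 4 stood above the other tongue libraries. The miR-30 family had 0 members called higher and 5 of 10 lower in tongue (median -0.34), beside 28.0% and 27.8% of all 414, and 3 higher and 3 lower without the factors (212 and 77 of all 414). miR-30a-5p stood at 19158, 22365, 18572 and 20317 CPM in tongue and 26177, 32586, 33634 and 30961 CPM in muscle (-0.61 ± 0.10).

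The miR-17 families, which promote proliferation, had 5 of 17 members called higher and 4 lower in tongue, near the 28.0% and 27.8% of all 414. Without the factors the list had 12 higher and 2 lower, beside 212 and 77 of all 414. miR-92a, the most abundant, was lower (8556, 6944, 7244 and 5653 CPM in tongue, 14763, 13855, 18620.3 and 14717 CPM in muscle, -1.13 ± 0.12), and so was miR-92b (-1.20 ± 0.15), both also without the factors. miR-106b was higher (193, 147, 149 and 166 CPM against 73.6, 78.1, 73.5 and 88.7 CPM, 1.06 ± 0.13). The miR-181 family had 1 of 7 members called higher and 2 lower, beside 28.0% and 27.8% of all 414. Without the factors the family had 4 higher and 1 lower, beside 212 and 77 of all 414. miR-181a, its most abundant member, was only just called (-0.31 ± 0.11, adjusted p in edgeR 0.0494), with overlapping groups, and lost its call without fetus 1, 3 or 4 (-0.24, -0.29 and -0.34).

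**Figure D3:**
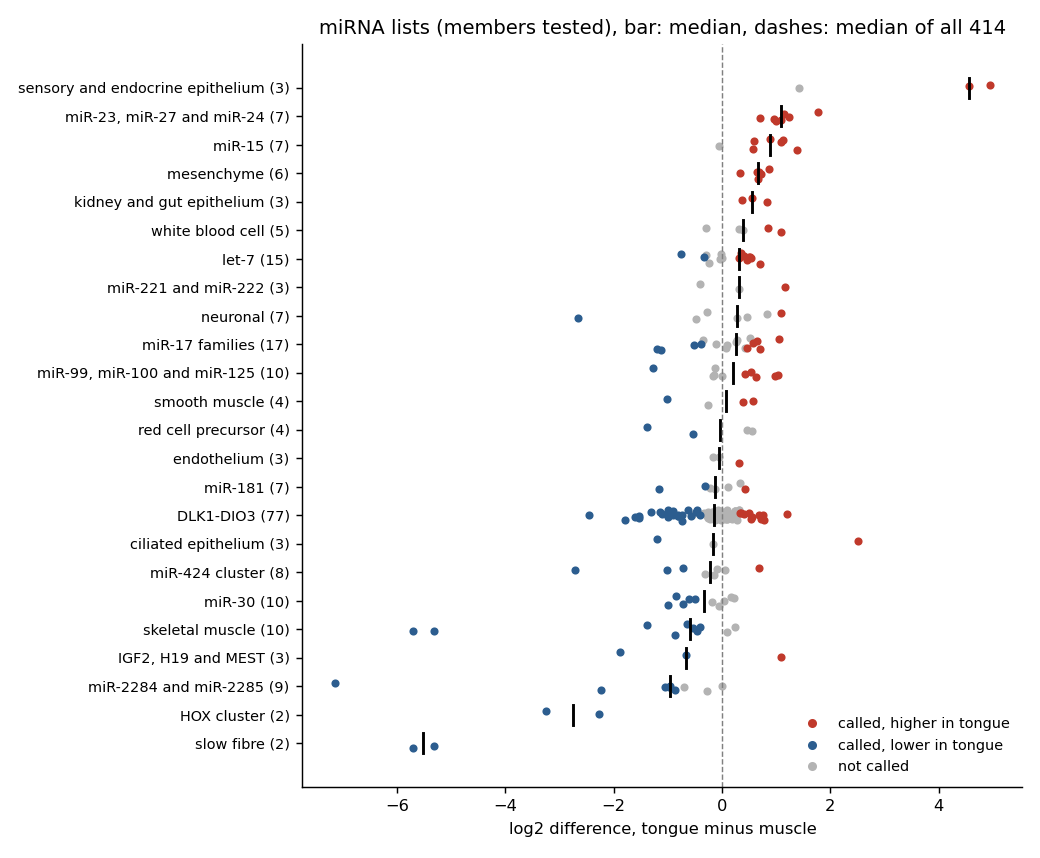
Log2 differences (tongue minus muscle, horizontal axis) of the tested members of each list with 2 or more of them (vertical axis, number tested in brackets), red where called higher in tongue, blue where called lower and grey where not called. The black bar is the median of the list and the dashed line the median of all 414, near 0. The lists of slow fibre, HOX cluster and miR-2284 and miR-2285 lie lowest, and those of sensory and endocrine epithelium and of miR-23, miR-27 and miR-24 highest.

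The DLK1-DIO3 domain is an imprinted region whose maternal allele makes a large cluster of miRNAs. The list used for it held 77 of the 414 miRNAs and much of the reads. Whether other tested miRNAs also lie in the domain was not examined, because positions were not used. In tongue its tested members summed to 330000.0 ± 28073 CPM and in muscle to 449038 ± 23355 CPM. The scaled ranges, 291763 to 357883 and 424150.0 to 475296 CPM, did not overlap. The factors (1.05 to 1.21 in tongue, 0.858 to 0.909 in muscle) widen this gap, and the sum without them was not computed. Of the 77 members, 11 were called higher and 24 lower (median -0.14). Of all 414, 28.0% were called higher and 27.8% lower. The share of lower members was thus near that of all miRNAs, and the share of higher members was smaller. Without the factors the list had 34 higher and 19 lower, beside 212 and 77 of all 414. The difference in the scaled sum was mostly miR-381, which stood at 38943, 43261, 44659.8 and 33459 CPM in tongue and 122111, 119902, 124409 and 116789 CPM in muscle (-1.60 ± 0.10, adjusted p in edgeR 3.65e-05). miR-410 was lower too (22699 ± 2015 and 34932 ± 1052 CPM, -0.63 ± 0.09), while miR-127 (103135, 124721, 113170.0 and 138243 CPM in tongue, 143467, 109103, 117616 and 112430.0 CPM in muscle, -0.01 ± 0.14) and miR-411a (-0.22 ± 0.12) were not called. Without the factors miR-127 was called higher in tongue (0.35, adjusted p in edgeR 0.028). Members of 1 cluster thus did not share 1 difference: miR-432 (-0.80 ± 0.10), miR-433 (-0.98 ± 0.11) and miR-665 (-0.96 ± 0.11) were lower. Of the arms of miR-1185, miR-1185 was higher (0.68 ± 0.12) and miR-1185-3p lower (-1.54 ± 0.19).

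Other miRNAs of imprinted genes differed in direction as well. miR-335, which lies within MEST, stood at 1872, 1815, 2009 and 2034 CPM in tongue and 945, 888, 944 and 878 CPM in muscle (1.08 ± 0.09, adjusted p in edgeR 7.23e-05). Its other arm, miR-335-3p, stood at 390.4, 277, 397 and 157 CPM in tongue and 1068, 1049, 1182 and 926 CPM in muscle (-1.87 ± 0.19, adjusted p in edgeR 0.000179). The arms of 1 hairpin were thus each apart between the tissues, in opposite directions. miR-483, which lies within IGF2, was lower in tongue (95.4, 102, 112 and 101 CPM against 158, 142, 186 and 167 CPM, -0.67 ± 0.11). miR-296-3p, of the GNAS region, stood at 33.5, 35.2, 33.4 and 20.3 CPM in tongue and 336, 382, 368 and 333 CPM in muscle (-3.56 ± 0.15, adjusted p in edgeR 2.75e-06), and miR-296-5p was lower with it (-2.23 ± 0.25).

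miR-2284x had the largest difference of all 414. It belongs to the miR-2284 and miR-2285 families, which are known from ruminants and have many copies. It stood at 10.8, 6.05, 11.6 and 3.92 CPM in tongue and 1045, 1044, 1143 and 1093 CPM in muscle (-7.14 ± 0.30, adjusted p in edgeR 2.75e-06). Tongue controls 5 to 9 had 7.87 to 15.4 CPM. In unscaled means, muscle (956 CPM), kidney (951 CPM) and liver (1015 CPM) were close to each other and tongue stood at 9.31 CPM. Of the 9 family members tested, 0 were called higher and 6 lower in tongue (median -0.97), beside 28.0% and 27.8% of all 414. Without the factors the list had 0 higher and 4 lower, beside 212 and 77 of all 414. A further 9 members were listed in muscle and not in tongue. Of these, 9 were listed in kidney and 8 in liver, with miR-2284y at 31.8 ± 4.01 unscaled CPM in muscle, 37.5 in kidney and 42.4 in liver. miR-2284w-3p was among the lower members (12.7, 9.11, 12.8 and 5.58 CPM in tongue, 50.3, 44.1, 50.2 and 38.7 CPM in muscle, -2.24 ± 0.17). Reads of near-identical copies can be split between entries in ways the sources used here do not give, so single members are uncertain. Whether the separate processing of tongue bears on these values was not tested, and tissue and processing cannot be told apart.

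Some of the 12 largest differences each way concerned miRNAs of no list. miR-490, which lies within a muscarinic receptor gene, stood at 14.2, 7.78, 8.65 and 14.5 CPM in tongue and 64.5, 85.5, 69.3 and 84.4 CPM in muscle (-2.79 ± 0.22). miR-769 stood at 72.6, 47.1, 105 and 34.7 CPM and 262, 278, 462 and 410.1 CPM (-2.51 ± 0.27). Both were apart in every fetus. The entry with the temporary name miR-temp60-5p stood at 4.03, 4.12, 3.79 and 3.03 CPM and 38.3, 71.4, 35.2 and 71.8 CPM (-3.76 ± 0.26), and toward tongue miR-temp77-5p stood at 63, 69.2, 79.6 and 39.8 CPM and 23.7, 23.9, 30.1 and 31.7 CPM (1.17 ± 0.22).

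Arms of the same hairpin often differed between the tissues by unequal amounts. Arms were paired where a precursor had exactly 2 tested entries. The 49 of the 414 entries whose precursor was given as mixed were left out, so some hairpins with both arms tested are missing. Of the 84 precursors paired, 10 had both arms called in the same direction, 10 in opposite directions, 47 had 1 arm called and 17 neither. The arms had the same sign in 43. Beside this, 28.0% of all 414 miRNAs were called higher and 27.8% lower. The counts were made with the factors only. They were not compared with pairs of unrelated miRNAs, so they do not show a trait of arms. The median gap between the arms' log2 differences was 0.63, and it was 1 or more in 19. The examples below were chosen after their values were seen. miR-424-5p, of a cluster on the X chromosome, stood at 600.2, 583, 501 and 669.7 CPM in tongue and 329, 380.2, 371 and 380.0 CPM in muscle (0.68 ± 0.11). miR-424-3p stood at 35.8, 33.7, 32.9 and 21.6 CPM in tongue and 176, 205, 207 and 212 CPM in muscle (-2.70 ± 0.18). Both groups were apart, in opposite directions. miR-127, which was not called, has the other arm miR-127-5p, which was lower (225, 196, 261 and 135 CPM against 1069, 1070.1, 1076 and 1141 CPM, -2.45 ± 0.18). miR-151-5p was higher (0.68 ± 0.10) and miR-151-3p lower (-0.82 ± 0.11). miR-106b was higher and miR-106b-3p lower (-0.52 ± 0.10). miR-708 was higher with overlapping groups (0.81 ± 0.21, and no longer called without fetus 3 at 0.70) and miR-708-3p lower (-0.81 ± 0.15). A gap between arms does not depend on the scaling factors, but the sign of a small difference does, and miR-106b-3p and miR-708-3p lost their calls without the factors.

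The ratio of the arms was also set beside kidney and liver. In 71 of the 84 pairs both arms were listed in the 4 tissues. The ratio in all 4 tongue libraries lay below every library of the other 3 tissues in 12 of these pairs and above in 15. By the same rule kidney was below in 8 and above in 4, liver below in 7 and above in 6, and muscle below in 4 and above in 2.

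**Figure D4:**
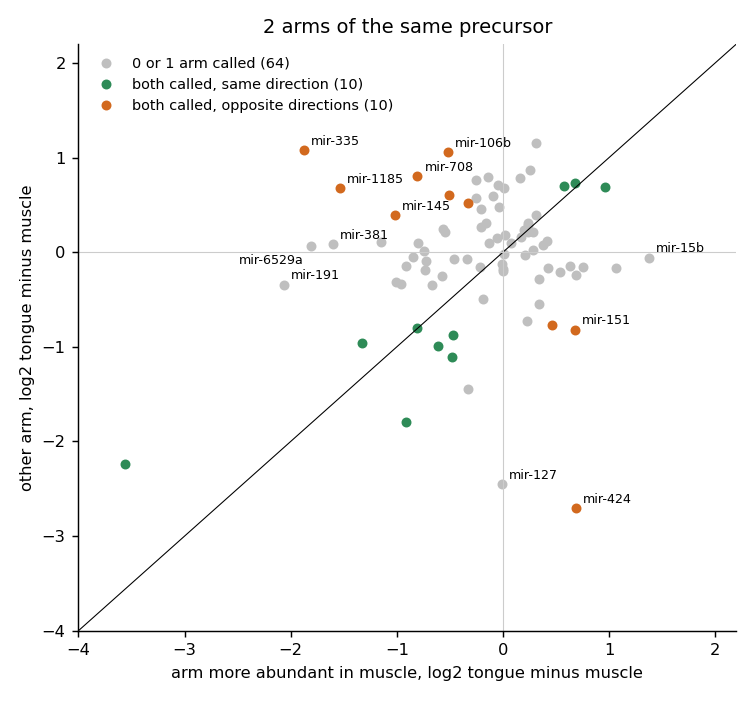
Log2 difference (tongue minus muscle) of the arm less abundant in muscle (vertical axis) against that of the more abundant arm (horizontal axis) for 84 precursors, with equal values on the black line. Green precursors had both arms called in the same direction (10), orange in opposite directions (10) and grey 0 or 1 arm called (64), and mir-335, mir-1185, mir-424 and mir-127 lie farthest from the line.

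The tables listed 46 miRNAs in tongue alone and 25 in muscle alone. Most were of low level: the median was 7.56 unscaled CPM in the former and 9.91 in the latter, and 14 and 12 were over 10 CPM. Of the 46, 6 were listed in neither kidney nor liver, and of the 25, 2. The 8 highest of each table have been named above, with the exception of miR-200a-5p (20.8 ± 6.28), miR-2284z (25.3 ± 1.61), miR-2284w (18.4 ± 3.95) and miR-29a. miR-29a, which restrains collagen genes, was listed in tongue at 17.5 ± 1.55, in kidney at 31.5 and in liver at 298 unscaled CPM.

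Across the 374 miRNAs listed in all 4 tissues, a further description asked where tongue stood 2-fold or more apart from 3 other tissues whose unscaled means lay within 2-fold of each other. Among 67 miRNAs with such even levels elsewhere, tongue was lower in 4 (miR-2284x, miR-769, miR-671-3p and miR-3432a-2-3p) and higher in 4 (miR-23b-3p, miR-27a-3p, miR-24-3p and miR-10174-3p). Of the lower ones, miR-671-3p and miR-3432a-2-3p were of low level in all 4 tissues. They stood at 3.86 and 4.18 unscaled CPM in tongue, and at 11.1 to 18.9 and 13.4 to 14.1 in the other tissues. miR-23b-3p, for example, stood at 3368 unscaled CPM in tongue, 778 in muscle, 1005 in kidney and 547 in liver. The same rule gave 2 lower and 3 higher of 68 for muscle, 27 lower and 5 higher of 87 for kidney, and 19 lower and 49 higher of 143 for liver. These names were chosen after their values were seen.

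Among the calls, tongue of fetus 4, the shallowest of the 4 tongue libraries, was often the most extreme. Of the 115 miRNAs lower in tongue it was the lowest tongue library in 60, and of the 116 higher it was the highest in 52. Muscle of fetus 3 was the highest muscle library in 52 of the 115 lower in tongue. These counts were not made over all 414, so they do not show a trait of the calls. Leaving out fetus 4 gave 210 calls, 98 higher and 112 lower. The 5 other tongue controls, which took no part in the calls, were set beside the 4 muscle libraries. Of the 27 miRNAs called 2-fold or more higher in tongue, all of tongue controls 5 to 9 lay above all muscle libraries in 24, the exceptions being miR-100, miR-150 and miR-221-5p. Of the 51 that were 2-fold or more lower, they lay below in 47, the exceptions being miR-449a, miR-2285cm, miR-temp54-5p and miR-temp97-5p. Of all 116 called higher they lay above in 93, and of all 115 called lower below in 97. Of all 414 they lay above in 101 and below in 106. The muscle libraries are those that made the calls. With all 9 tongue controls and no block, 273 of 414 were called.

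The tissue difference was then measured in LOS fetuses 1 to 4, which share no library with the controls. There 254 miRNAs (61.4%) were called, 120 higher and 134 lower in tongue. Of the 231 control calls, 199 (86.1%) were also called in LOS fetuses in the same direction and 0 in the opposite one, and these were 78.3% of the LOS calls. Of the 78 control calls of 2-fold or more, 78 had the same sign in LOS fetuses and 76 were called. miR-208b stood at 43.9, 14.8, 35.7 and 24.9 CPM in LOS tongue and 1328, 1372, 969 and 793 CPM in LOS muscle (-5.27 ± 0.34), and miR-2284x at 5.96, 5.31, 11 and 17.3 CPM and 1028, 1101, 931 and 838 CPM (-6.73 ± 0.41). miR-205 differed by 6.58 ± 0.39, miR-141 by 6.52 ± 0.29, miR-10a by -3.62 ± 0.12 and miR-199a-3p by 0.73 ± 0.07. The arms of miR-335 were again apart in opposite directions (1.23 ± 0.10 and -1.61 ± 0.18), and so were those of miR-424 (0.82 ± 0.15 and -2.35 ± 0.16). Across the 414 miRNAs the control and LOS differences had a Pearson r of 0.97, a description over miRNAs, which are not independent replicates. The processing of each tissue was the same in both sets of fetuses, so the repeat does not bear on it.

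**Figure D5:**
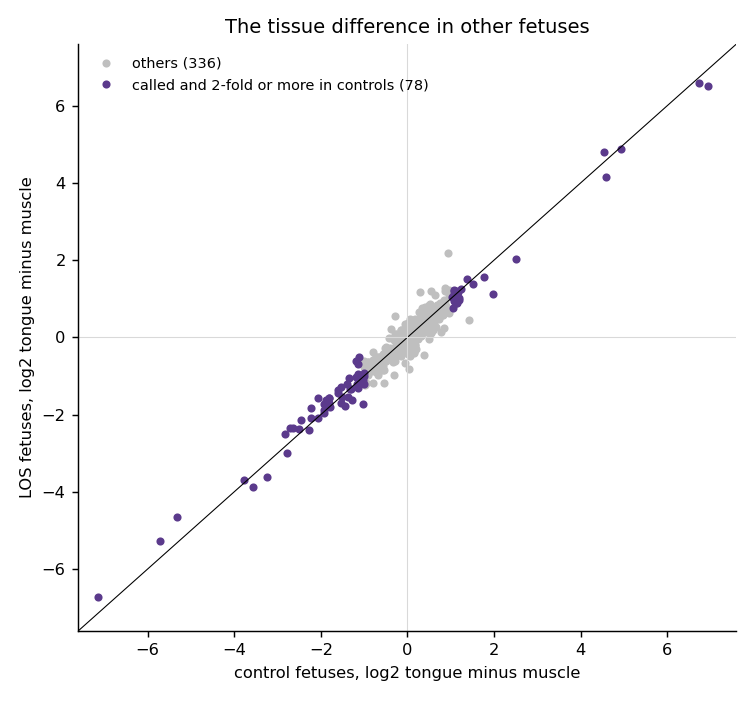
Log2 difference (tongue minus muscle) in LOS fetuses 1 to 4 (vertical axis) against that in control fetuses 1 to 4 (horizontal axis) for 414 miRNAs, with equal values on the black line. Purple points were called and 2-fold or more in controls (78), and all of them lie on the same side of 0 on both axes.

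No difference between the contrasts passed the test. The tissue by LOS interaction in edgeR's quasi-likelihood test gave 0 calls of 414, with 26 miRNAs at an unadjusted p under 0.05 and a lowest adjusted p of 0.691. DESeq2 and limma-voom also gave 0. A p that misses the threshold does not show that the contrasts are equal: among the 78 larger control differences the interaction reached -0.79 ± 0.47 (miR-204, adjusted p in edgeR 0.83). Without LOS fetus 2, 1 miRNA was called in edgeR, miR-temp45-3p, named after its values were seen (log2 interaction 1.52 ± 0.23, adjusted p 0.029, against 0.93 and an adjusted p of 0.83 with all fetuses).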

How the data were processed

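Small RNA was sequenced from fetal tissue. Per the labels' protocols, libraries were made with Illumina's TruSeq small RNA reagents from 2 µg of TRIzol RNA, and a gel slice of 140 to 160 bp was kept. The deposited tables hold the authors' whole-number counts per mature miRNA, not normalized. Per the submitters' processing notes Bowtie and build UMD3.1 were used in both tissues and cutadapt 1.18 in tongue. The sources used here do not give the counter, the miRNA annotation or any abundance filter, and positions and sequences were not used here.

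From the counts, CPM were computed over the listed total of each library, with TMM factors over the 414 shared miRNAs (R 4.3.3, edgeR 4.0.16). No low-count filter was applied. Tongue minus muscle was tested with edgeR's quasi-likelihood F test, with the fetus number as a block and Benjamini-Hochberg adjustment over 414 miRNAs. A call is an adjusted p under 0.05. The numbers pair the tissues because the labels use the same numbers, taken as the same fetus. Deviations of same-numbered control libraries from the tissue means correlated at -0.02, 0.01, 0.33 and 0.15 across miRNAs for fetuses 1 to 4, and at 0.23, -0.09, 0.33 and 0.38 in LOS. The closest libraries of a tissue (muscle 2 and 4) had a chi-square over degrees of freedom of 55.3, so each library was counted as its own sample. The entries miR-339a and miR-339b, miR-1260b and miR-temp72-5p, miR-temp34-3p and miR-temp82-3p, and miR-temp81-5p and miR-temp94-3p had near-equal counts and are uncertain.

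The 28 miRNA lists and the comparison were chosen with earlier results of these data known. Lists are described by counts and medians, with no test. The rule for naming took the 12 largest differences each way (called, mean of 50 CPM or more in the higher tissue, same direction in 4 of 4 fetuses), the 10 most abundant miRNAs per tissue, list members of 50 CPM or more and defining markers, the 8 highest listed in 1 table, and calls of the interaction. List members of 50 CPM or more are not all printed, and that rule does not set which of them are. miR-142-3p, miR-144, miR-146a, miR-150, miR-151-5p, miR-151-3p, miR-221-5p, miR-296-5p, miR-449a, miR-708, miR-708-3p, miR-2284w-3p, miR-10b-3p and miR-124a fall outside that rule and were chosen after their values were seen. Alternatives were no block, DESeq2 1.42.0, limma-voom (limma 3.58.1), RLE factors, no scaling factor, library size from the shared miRNAs, a minimum mean of 10 CPM, leaving out the 3 most abundant miRNAs, leaving out each fetus, 9 tongue controls, and glmTreat for the 2-fold count. A check by GC content of the sequences was void because no sequences were at hand.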

Additional observations from a re-analysis of the deposited data

Results flagged for a closer look

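In 107 miRNAs named or examined, each group of 4 control libraries was searched for a highest or lowest library far from the other 3 relative to the range of the group. This gave 17 in 214 groups, and chance gives about 1 in 20. In tongue, fetus 4 was the highest in let-7a-5p (14415 CPM), let-7f (17444 CPM), let-7g (3675 CPM), let-7i (14534 CPM) and miR-26a (84446 CPM), and the lowest in miR-296-3p (20.3 CPM) and miR-296-5p (3.62 CPM). Fetus 1 was the lowest in tongue in miR-133b (1994 CPM) and the highest in miR-9 (67.1 CPM). In muscle, fetus 2 was the highest in miR-182 (210.1 CPM), miR-183 (48.7 CPM), miR-9 (158 CPM) and miR-15a (113 CPM), and fetus 4 in miR-375 (23.5 CPM) and miR-127-5p (1141 CPM). Fetus 1 was the lowest muscle library in miR-218 (40.6 CPM) and miR-30d (3239 CPM).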

How the results depend on the processing

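Without the fetus as a replicate block edgeR called 242 miRNAs in controls (125 higher, 117 lower), 233 in LOS and 0 in the interaction. Of the miRNAs named, miR-449a, miR-126-3p and miR-215 lost their call without the block and miR-143 and miR-375 gained one. DESeq2 called 243, limma-voom 233, RLE factors 231, the shared library size 231, the minimum of 10 CPM 217 of 372, and leaving out the 3 most abundant miRNAs 237. Without the scaling factor 289 were called in controls (212 higher, 77 lower) and 281 in LOS (210 higher, 71 lower). Leaving out 1 fetus gave 189 to 212 calls in controls, 74 to 86 of 2-fold or more, and 194 to 246 calls in LOS, 82 to 86 of 2-fold or more. The 2-fold count of 78 fell to 40 with glmTreat. The interaction gave 0 calls without any 1 fetus except LOS fetus 2 (1 call). Of 1387 values of 107 single miRNAs, 1314 kept direction and side of the threshold and 15 changed sign. The sign turned without the scaling factor in miR-143 (0.10), miR-126-5p (0.19), miR-139 (0.30), miR-155 (0.069), miR-9 (0.073), let-7d-3p (0.12), let-7i (0.021), miR-99b (0.35), miR-181a (0.047), miR-127 (0.35) and miR-411a (0.14). Without the factor the median shift of 0.35 stays in, which turns small negative differences positive. Of these, miR-127 and miR-139 were then called higher in tongue (adjusted p in edgeR 0.028 and 0.0302). It also turned in miR-99b without the 3 most abundant miRNAs (0.0027). Leaving out 1 fetus, the sign turned in miR-99b without fetus 4 (range -0.075 to 0.12), in miR-127 without fetus 1 (range -0.11 to 0.15) and in miR-9 without fetus 2 (range -0.63 to 0.23), and the cause was not tested. Depth limits miRNAs of a few CPM, and tongue was sequenced deeper than muscle.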
